A study of Rattus norvegicus with 8 samples.

Results

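Crystallins are the abundant soluble proteins of the ocular lens, and several of them are also made in the retina. The transcripts of 10 crystallin genes were followed here in rat retina after optic nerve crush. They were chosen by gene name on the array, out of 26334 names in all, and are measured by 11 of 30367 probes: 2 genes of the alpha class (Cryaa, Cryab), 6 of the beta class (Cryba1, Cryba2, Cryba4, Crybb1, Crybb2, Crybb3) and 2 of the gamma class (Crygb, Crygs). RNA came from whole retinas of female Lister Hooded rats operated at 8 weeks of age and killed 2 weeks later. In the ONC group (n = 4) forceps were closed on the right optic nerve for 10 s, 3 mm behind the optic disc. For the sham-operated CTR group (n = 4) the nerve was reached in the same way but was not crushed. Retinas were profiled singly, and since the labels do not say whether each came from a separate animal, p-values measure only the spread between these samples.

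Alpha-crystallins belong to the small heat shock proteins and act as chaperones that hold unfolding proteins in solution. Cryaa is largely restricted to the lens, whereas Cryab is expressed in many tissues, glia among them. Beta- and gamma-crystallins form a separate superfamily of structural proteins that pack densely in lens fibre cells, the beta class as oligomers and the gamma class mostly as monomers, and several are also transcribed in retinal neurons and glia.

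By the labels, each of the 4 arrays paired a CTR with an ONC retina of equal number. All CTR retinas were then in the Cy5 dye and all ONC retinas in Cy3, so that dye and condition cannot be told apart. The methods instead put retinas of the same group together on each array, with both dyes in each group. If so, the differences within arrays and the array block given below would not compare ONC with CTR. Markers of retinal ganglion cells (RGCs), the neurons whose axons were crushed, also went against the labels. Over 8 RGC markers the median centered log2 level (the level of a gene less the mean of that gene in the 8 channels) was -1.65, 1.22, -1.28 and -1.08 in the channels labeled CTR1 to CTR4. It was 1.42, 1.40, 1.48 and -1.24 in those labeled ONC1 to ONC4. The channels labeled CTR2, ONC1, ONC2 and ONC3 were thus high and the other 4 were low. CTR and ONC stand for these labels throughout, and each direction given is one between labels.

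All 10 crystallin genes passed the spot filter (no outlier flag, and foreground at least 2 times background in every channel), and the scanner software marked each of their spots as well above background in 8 of 8 channels. The foreground of the Crybb1 probe was 7.72 to 21.6 times its local background. For the other probes the lowest such ratio in any channel lay between 59.2 (Cryba4 in ONC1) and 626.9 (Cryab in CTR1). Rod markers, which define the tissue as retina, were present as well: 6 of 7 passed the filter, and the remaining probe (Rcvrn) was well above background in 8 of 8 channels but carried an outlier flag.

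Cryaa, the lens-restricted alpha-crystallin, had normalized log2 levels of 3.24, 4.41, 3.73 and 3.29 in CTR1 to CTR4, with 2.41, 2.83, 2.38 and 3.27 in ONC1 to ONC4, each relative to the median gene of its channel. The ONC values lay lower, and ONC4 alone reached the CTR range. The group means were 3.67 ± 0.54 (SD, n = 4) in CTR and 2.72 ± 0.42 (SD, n = 4) in ONC. The log2 fold change of ONC over CTR was -0.95 (standard error 0.29), with a Benjamini-Hochberg adjusted p = 0.134 by limma over all genes, and ONC was the lower channel on 4 of 4 arrays. The array design gave no position for its probe.

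Cryab, the widely expressed alpha-crystallin, was at 4.97, 5.78, 5.46 and 5.54 in CTR1 to CTR4 and at 4.71, 4.98, 4.81 and 5.37 in ONC1 to ONC4. Its spread was the narrowest of the 10 genes, and the groups overlapped through CTR1. The group means were 5.44 ± 0.34 (SD, n = 4) and 4.97 ± 0.29 (SD, n = 4). The log2 fold change was -0.47 (standard error 0.19, adjusted p = 0.242 by limma), again lower in ONC on 4 of 4 arrays. In whole-retina RNA, fewer cells of a type and less RNA per cell cannot be told apart. Its probe lies at chr8:54111396-54111455 of the rn4 build used for the array design.

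Whether the lens-restricted and the widely expressed alpha-crystallin moved alike was asked from the log2 difference Cryaa minus Cryab in each channel. It was -1.73, -1.37, -1.73 and -2.25 in CTR1 to CTR4, and in ONC1 to ONC4 it was -2.30, -2.15, -2.43 and -2.10. CTR4 fell among the ONC values, and the other 3 CTR channels lay above them. The groups differed by -0.48, with a two-sided exact permutation p = 0.0857 over 70 assignments (smallest possible 0.0286), and the ONC channel was the lower one on 3 of 4 arrays. With a channel left out the difference ran from -0.64 (CTR4) to -0.34 (CTR2), with exact permutation p of 0.0857 to 0.114 for all but CTR4. Without CTR4 the remaining groups do not overlap, so that p takes the smallest value possible there, 0.0286. It was smaller with the processed signals, at -0.30, and with median scaling, at -0.32 (exact permutation p = 0.0857 and 0.171). The difference is one of change across channels, not of level between the 2 probes.

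Among the beta-crystallins, Cryba1, an acidic beta-crystallin of the lens that is also made in retinal astrocytes, was at 4.05, 5.36, 4.17 and 3.50 in CTR1 to CTR4 and at 3.20, 4.43, 3.30 and 4.74 in ONC1 to ONC4. It had the widest range of the 10 genes, 4.46-fold between CTR2 and ONC1, and the groups overlapped. Its log2 fold change was -0.35 (standard error 0.45, adjusted p = 0.738 by limma), and with a channel left out it ran from -0.63 (without ONC4) to 0.01 (without CTR2). On arrays 1, 2 and 3 the ONC channel was lower by a log2 difference of -0.85, -0.93 and -0.87, and on array 4 it was higher by 1.24. Its probe lies at chr10:63758943-63759002 (rn4).

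Crybb2, a major beta-crystallin of the lens, was at 4.02, 5.12, 3.98 and 3.87 in CTR1 to CTR4 and at 3.38, 3.96, 3.37 and 4.35 in ONC1 to ONC4. CTR2 was 2.24 times the mean of the other 3 CTR channels, which lay close together, and the groups overlapped. The log2 fold change was -0.48 (standard error 0.32, adjusted p = 0.461 by limma), and without CTR2 it was -0.19. The other 4 members, Cryba2, Cryba4, Crybb1 and Crybb3, had log2 fold changes of -0.60, -0.39, -0.53 and -0.51, with adjusted p between 0.298 and 0.628 by limma. Without CTR2 these were -0.28, -0.08, -0.28 and -0.20. In all 6 beta-crystallins CTR2 was the highest channel, ONC1 or ONC3 was the lowest, and the ONC channel was the lower one on arrays 1, 2 and 3 and the higher one on array 4.

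Of the gamma class, Crygb, a lens fibre gene, was at 3.53, 5.54, 4.05 and 3.73 in CTR1 to CTR4 and at 3.83, 4.23, 3.95 and 5.23 in ONC1 to ONC4. CTR2 and ONC4 were high, the other 6 channels lay between 3.53 and 4.23, the lowest was a CTR channel, and the groups overlapped. Its log2 fold change was 0.10 (standard error 0.46, adjusted p = 0.937 by limma), which became -0.06 with median scaling of the channels in place of loess. With a channel left out it ran from -0.21 (without ONC4) to 0.54 (without CTR2). Its probe lies at chr9:63730931-63730990 (rn4), within the cluster of closely similar gamma-crystallin genes, so a share of its signal from a neighbouring paralog was not tested.

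Crygs, the gamma-crystallin that is made in the adult lens cortex, was measured by 2 probes, at chr11:80437591-80437650 and chr11:80437738-80437797 (rn4). Their mean was 4.47, 5.87, 4.93 and 3.90 in CTR1 to CTR4, with 4.13, 4.67, 4.0 and 4.75 in ONC1 to ONC4, so that its log2 fold change was -0.41 (standard error 0.38, adjusted p = 0.620 by limma). CTR2 was the highest channel and CTR4 the lowest, and the groups overlapped. Without CTR2 the log2 fold change was -0.05, and without CTR4 it was -0.70. Fitted alone, the probes gave -0.31 and -0.51, with adjusted p = 0.787 and 0.499 by limma. They parted on array 4. The first probe had its lowest level in CTR4, at 2.83, and was at 3.79 in ONC4. The second was at 4.97 in CTR4 and had its second-highest level in ONC4, at 5.72.

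**Figure D1:**
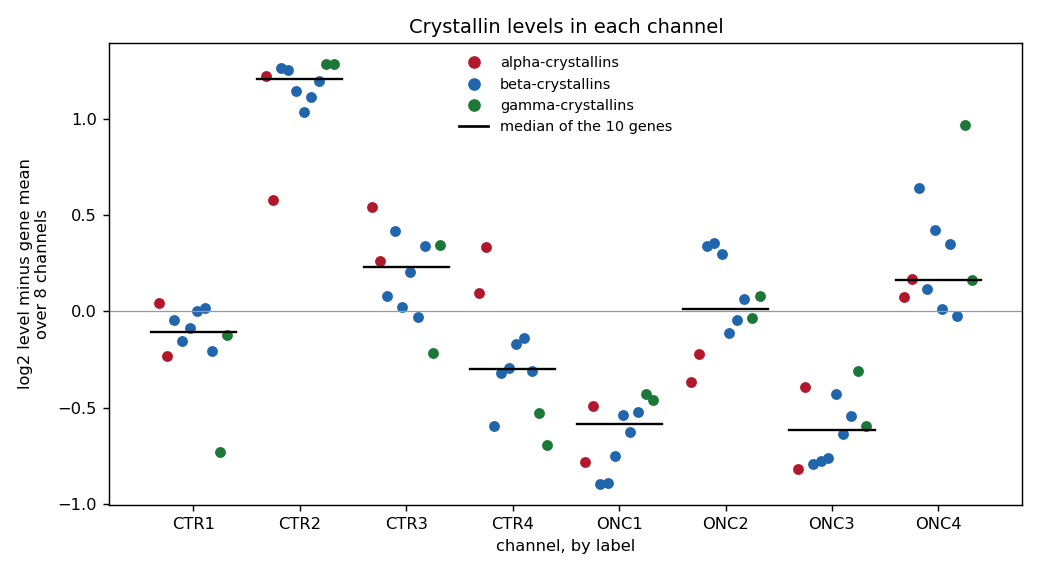
Log2 level of each of the 10 crystallin genes less that gene's mean over the 8 channels (vertical axis, log2 units), by channel label (horizontal axis); points are genes coloured by class and black lines are the median of the 10 genes. CTR2 stands apart at a median of 1.21, and ONC1 and ONC3 are the lowest at -0.58 and -0.62.

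Across the 10 genes, channels of the same label stood far apart. The median centered log2 level was highest in CTR2 at 1.21, followed by CTR3 at 0.23, ONC4 at 0.16, ONC2 at 0.01, CTR1 at -0.10, CTR4 at -0.30, ONC1 at -0.58 and ONC3 at -0.62. CTR2 was the highest of the 8 channels for 10 of 10 crystallins, against 6.78% of all 16307 genes, and the highest CTR channel for 10 of 10, against 15.1%. The ratio of CTR2 to the mean of CTR1, CTR3 and CTR4 ran from 1.37-fold for Cryab to 3.42-fold for Crygb. The closest pair of channels was ONC1 and ONC3, with a median absolute log2 difference of 0.10 over the crystallins and none above 0.13. That pair was also the closest over all genes, with a median of 0.08, against 0.157 for the next closest pair, CTR3 and CTR4. The SDs, standard errors and p-values given here count ONC1 and ONC3 as 2 retinas. CTR2 and ONC3 were the farthest apart for the crystallins, with a median of 1.81 against 0.19 over all genes.

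The range over the 8 channels was wide for all but a single member. Cryab spanned 2.10-fold, and 11.5% of all genes had a wider range. The other 9 crystallins spanned 2.98-fold (Crybb1) to 4.46-fold (Cryba1), and between 1.13% and 3.03% of all genes had a wider range. The median gene spanned 0.57 on the log2 scale.

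Between labels, limma called 0 of 10 crystallins at an adjusted p under 0.05, where 81 of 16307 genes, or 0.497%, were called, 38 higher and 43 (0.264%) lower in ONC. Unadjusted limma p under 0.05 were found for 2 crystallins, Cryaa and Cryab, both lower, against 3025 genes or 18.6%, of which 1607 (9.85%) were lower. By the methods' t-test, unadjusted, there were 0 crystallins, against 2682 genes or 16.4%. With a single channel left out limma called 0 genes, or 38 where that channel was ONC2, and 0 crystallins. By group mean, 9 of 10 were lower in the ONC channels, against 52.6% of all genes, the exception being Crygb, which turned lower as well with median scaling, for 10 of 10. Without CTR2 the count was 8 of 10, as Cryba1 was then above 0 as well (log2 fold change 0.01). The median log2 fold change of the 10 was -0.48, against -0.01 over all genes. The groups overlapped for 10 of 10 crystallins, whereas they did not overlap for 12.7% of all genes. Only Cryaa and Cryab were lower in ONC on 4 of 4 arrays, a direction shared by 21.2% of all genes.

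The number of genes called changed with the normalization and with the pairing of channels on an array, among other choices. When each channel was scaled to its median without loess, 3194 genes (19.6%) were called, 2267 higher and 927 (5.68%) lower. Cryaa (log2 fold change -1.03) and Cryab (-0.71) were then among them, each with an adjusted p = 0.0358 by limma, against a range over all alternatives of 0.0230 to 0.478 for Cryaa and 0.0114 to 0.683 for Cryab. With the array as a block and loess kept, limma called 1254 genes (7.69%), 502 higher and 752 lower, and 0 crystallins, with adjusted p = 0.0674 for Cryaa and 0.0647 for Cryab. Unadjusted p under 0.05 were then found for 3 crystallins, against 31.3% of genes. With both the block and median scaling, a setting chosen after seeing the data, 5371 genes (32.9%) and 2 crystallins, Cryaa and Cryab, were called. Without CTR2 the median log2 fold change of the 10 was -0.19, and with both channels of array 2 left out, also chosen after seeing the data, it was -0.28.

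**Figure D2:**
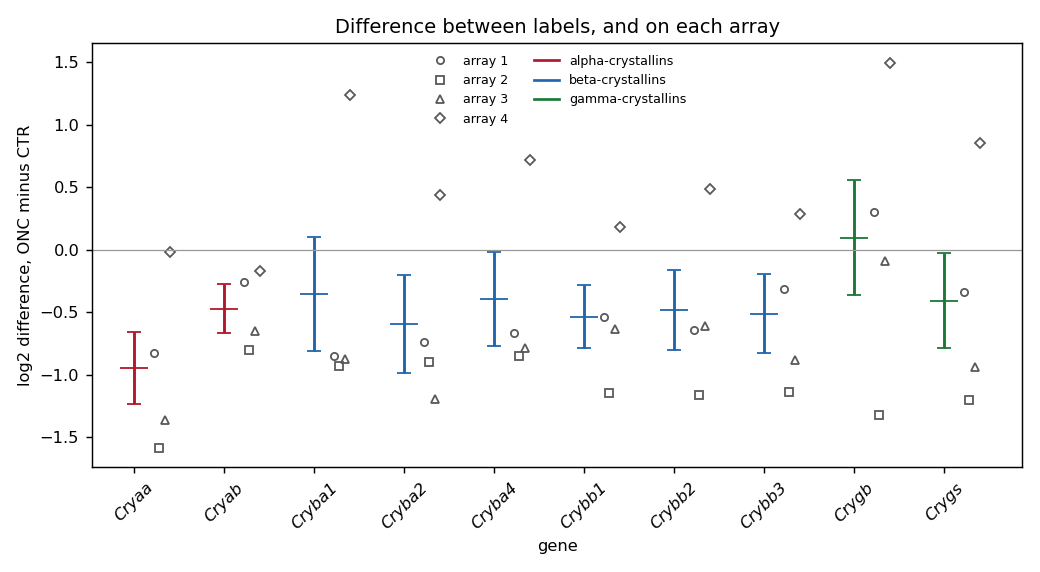
Log2 difference of ONC minus CTR for each crystallin gene; horizontal bars with whiskers are the difference of group means ± its standard error from limma (n = 4 a group), coloured by class, and open symbols are the differences on the 4 arrays. The values on arrays 2 and 3 are below 0 for 10 of 10 genes, and those on array 4 are above 0 for all but Cryaa (-0.02) and Cryab (-0.17).

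The classes were compared by their medians. The median log2 fold change was -0.71 for the 2 alpha-crystallins, -0.50 for the 6 beta-crystallins and -0.15 for the 2 gamma-crystallins. On array 4 the median differences of ONC minus CTR were -0.10, 0.46 and 1.18 for the alpha, beta and gamma class, on array 1 they were -0.54, -0.65 and -0.02, and on array 3 they were -1.0, -0.83 and -0.51. On array 2 the classes lay closest together, at -1.19, -1.03 and -1.26. In CTR2 the class medians of the centered log2 level were 0.90, 1.17 and 1.28. In CTR4 they were 0.22, -0.30 and -0.61, the channel in which the classes were spread most widely. Without CTR2 the gamma median turned to 0.25, while the alpha and beta medians were -0.53 and -0.19. A difference between the classes was not tested, since 2 of them hold only 2 genes.

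Likeness of the profiles over the 8 channels did not follow class in every case. The mean absolute log2 difference between centered profiles had a median of 0.19 over the 15 pairs of beta-crystallins, 0.27 over the 12 alpha-beta pairs, 0.28 over the 12 beta-gamma pairs and 0.38 over the 4 alpha-gamma pairs. It was 0.30 between Cryaa and Cryab and 0.32 between Crygb and Crygs. The closest pair of all crossed classes, Crybb3 and Crygs at 0.11, and the most distant was Cryaa and Crygb at 0.54. By the RefSeq annotation of GRCr8, Crybb2 and Crybb3 are neighbouring genes, as are Cryba4 and Crybb1, all on chromosome 12. Their differences, 0.19 and 0.23, were no smaller than the median over beta pairs.

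The 10 genes outside these crystallins whose centered profiles lay closest to the median crystallin profile were Grifin, Bfsp2, Bfsp1, Lim2, Ubqln1, Rtel1, an unnamed transcript (probe A_64_P039756), Crygn, Pabpc1l2a and St7l, out of 16297 genes. Their mean absolute log2 differences from it ran from 0.10 for Grifin to 0.28 for St7l, against a median of 0.45 over all genes. The first 4 are lens genes: Grifin encodes a lens galectin-related protein, Bfsp1 and Bfsp2 the beaded filament proteins of lens fibres, and Lim2 a lens fibre membrane protein. The other 4 lens markers that passed the filter ranked 28 (Birc7), 30 (Mip), 4842 (Lgsn) and 14967 (Hsf4) by the same distance. Grifin was at 3.01, 4.12, 3.03 and 2.74 in CTR1 to CTR4 and at 2.50, 3.16, 2.41 and 3.03 in ONC1 to ONC4. It was highest in CTR2 and lowest in ONC3 and ONC1, a likeness to the median profile that follows from how it was chosen. Its log2 fold change was -0.45 (standard error 0.30, adjusted p = 0.465 by limma).

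Lens markers as a whole were set beside the crystallins. Of 12 listed, 8 passed the spot filter (Lim2, Mip, Bfsp1, Bfsp2, Hsf4, Lgsn, Grifin and Birc7). Their summed linear level, in units of the median gene of each channel, was 11.3, 25.5, 11.7 and 9.46 in CTR1 to CTR4, with 8.42, 13.4, 7.93 and 13.8 in ONC1 to ONC4, with the brightest probe that of Grifin. As for the median of the crystallins, the list was highest in CTR2 and lowest in ONC3 and ONC1. Between labels limma called 0 of the 8, with 1 at an unadjusted p under 0.05 (Hsf4, higher in ONC), and the median log2 fold change was -0.11 (5 lower, 3 higher). The probes of Gja3, a connexin of lens fibres, of Foxe3, a factor of the lens epithelium, and of Dnase2b, a nuclease of lens fibres, did not pass and were marked as well above background in only 3, 2 and 1 of 8 channels. The part that RNA of lens cells had in the crystallin levels was not tested.

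**Figure D3:**
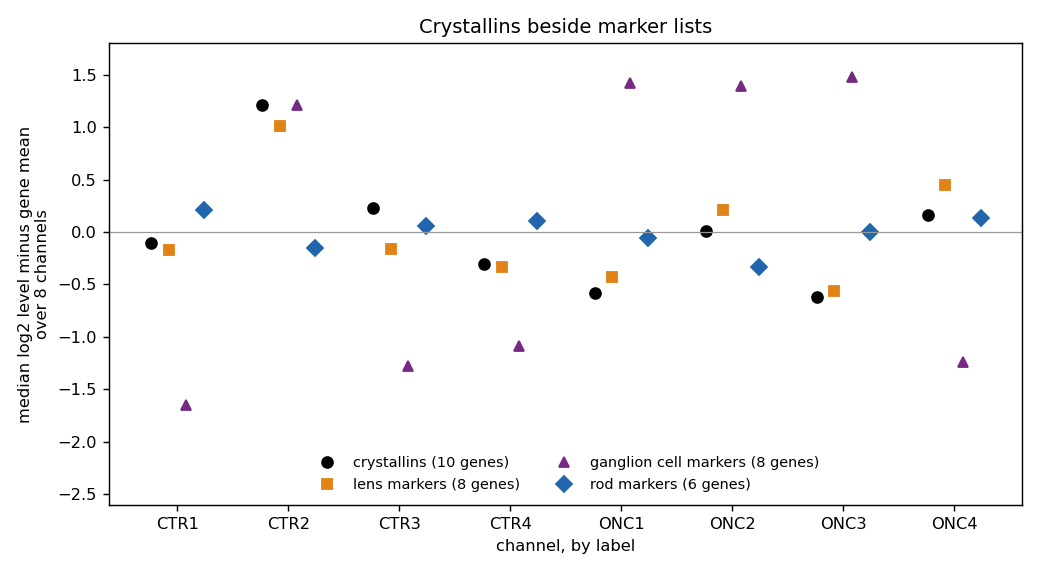
Median log2 level of each gene list, every gene less its mean over the 8 channels (vertical axis, log2 units), by channel label; symbols stand for the crystallins and the lens, ganglion cell and rod marker lists. Crystallins and lens markers both peak in CTR2, at 1.21 and 1.01, while ganglion cell markers are high in CTR2, ONC1, ONC2 and ONC3 alike.

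The RGC markers had another pattern. Of 11 listed, 8 passed the filter (Rbpms, Pou4f2, Sncg, Nefl, Nefm, Nefh, Thy1 and Slc17a6), and their summed linear level was 3.35, 23.8, 4.02 and 4.34 in CTR1 to CTR4, with 27.5, 27.4, 28.7 and 3.65 in ONC1 to ONC4, with the brightest probe that of Sncg. Pou4f3 and Isl2 did not pass and were well above background in 5 and 7 of 8 channels. The channels with high RGC markers held both the highest (CTR2) and the lowest crystallin levels (ONC1 and ONC3). All 8 were higher in ONC by group mean, with a median log2 fold change of 1.44, 0 called by limma and 0 at an unadjusted p under 0.05. The part of RGC number in the crystallin levels was not tested.

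By list median, the other cell types shifted less between labels than the RGC markers. Among 7 markers of Müller glia, the radial glia in which Cryab can be expressed, limma called 0 and the median log2 fold change was -0.23, with 2 at an unadjusted p under 0.05. Under the array block, Slc1a3 (log2 fold change -0.56, adjusted p = 0.0336 by limma, against 0.244 without the block) and Vim (-0.41, adjusted p = 0.0409 against 0.0799) were called, both lower in ONC on 4 of 4 arrays. Both calls were lost under the block with processed signals or without array 2, settings chosen after seeing the data that called 0 genes. Of the 7 markers 5 were lower and 2 higher. Gfap, the marker of gliosis, had the largest shift (log2 fold change -1.15, adjusted p = 0.296 by limma, 0.0746 under the block) and was lower on 3 of 4 arrays. Glul was higher on 4 of 4 arrays (log2 fold change 0.58, adjusted p = 0.271 by limma, 0.131 under the block), and the log2 fold change of Rlbp1 was 0.02. The 6 rod markers had a median of -0.08 and 0 calls by limma, with 2 at an unadjusted p under 0.05. Of 7 cornea and conjunctiva markers 5 passed the filter, with a median of -0.00, 0 calls and 0 at an unadjusted p under 0.05. Of 7 pigment epithelium markers 3 passed (Rpe65, Lrat and Ttr), with a median of 0.27, 0 calls and 1 at an unadjusted p under 0.05. In CTR2 the median centered log2 levels of these 4 lists were -0.06, -0.15, -0.10 and -0.31, against 1.21 for the crystallins.

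The remaining crystallins on the array were the gamma-crystallins Cryga, Crygc, Crygd, Cryge, Crygf and Crygn, together with Cryl1, Cryz, Cryzl1 and Crym. Of 10 listed, 8 passed the filter, with a median log2 fold change of 0.02 (4 higher, 4 lower), 0 called by limma and 2 at an unadjusted p under 0.05. The 4 gamma-crystallins among these 8 had a median log2 fold change of -0.17 (3 lower, 1 higher), with 0 called and 1 at an unadjusted p under 0.05. Cryga, Cryge, Crygf and Crygn had their highest level in CTR2, Crygf only narrowly (0.65, against 0.60 in ONC4), and 1 of its 2 probes was highest in ONC4. Cryge, a lens fibre gene of the gamma cluster, was at 0.86, 2.99, 1.56 and 0.69 in CTR1 to CTR4 and at 1.35, 1.31, 1.36 and 1.96 in ONC1 to ONC4. A probe of Crygf is annotated for Cryge as well, so these levels are uncertain for each gene. For Crygn, a divergent relative of the beta and gamma classes, the log2 fold change was -0.51 (adjusted p = 0.220 by limma), with ONC lower on 4 of 4 arrays.

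Crygc and Crygd were left out by an outlier flag, in ONC4 and ONC3 respectively. Without flags and with the normexp background correction, a setting chosen after seeing the data, Crygc was at 5.40, 7.06, 5.55 and 4.39 in CTR1 to CTR4 and at 4.39, 5.56, 4.26 and 6.18 in ONC1 to ONC4. Crygd was at 5.36, 7.58, 5.58 and 5.18 in CTR1 to CTR4 and at 5.53, 5.77, 1.52 and 6.58 in ONC1 to ONC4, where 1.52 belongs to the marked spot. Both were highest in CTR2. Apart from the marked spots, the highest ONC channel was ONC2 for Crygc and ONC4 for Crygd.

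Of the others, Cryl1, Cryz and Cryzl1, which are related to metabolic enzymes, stayed within a range of 0.28 to 0.48 on the log2 scale over the 8 channels. Crym, a thyroid hormone binding protein unrelated to the lens superfamilies, was at 6.46, 6.92, 7.47 and 7.46 in CTR1 to CTR4 and at 5.28, 6.30, 6.15 and 6.43 in ONC1 to ONC4. Every ONC value was below every CTR value, as for 6.92% of all genes in that direction. Its log2 fold change was -1.04 (standard error 0.30, adjusted p = 0.118 by limma), and with the array as a block it was called (adjusted p = 0.0285 by limma). That call was lost with the block and the processed signals, and with the block without array 2, where 0 genes were called. Both settings were chosen after seeing the data.

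Small heat shock proteins, the family to which the alpha-crystallins belong, had a median centered log2 level of -0.14 in CTR2. All 7 listed passed the filter, with a median log2 fold change of -0.01, 0 called by limma and 1 at an unadjusted p under 0.05. That gene, Hspb1, a chaperone of glia and injured neurons, was at 1.58, 1.09, 1.78 and 2.22 in CTR1 to CTR4 and at 0.84, 0.31, 0.79 and 1.76 in ONC1 to ONC4, so CTR2 was its lowest CTR channel. Its log2 fold change was -0.74 (standard error 0.32, adjusted p = 0.261 by limma, and 0.0290 with the array as a block). The block with the processed signals, or without array 2, called 0 genes. Hspb2, the neighbour of Cryab on chromosome 8, spanned 0.39 on the log2 scale with a log2 fold change of -0.02, against a span of 1.07 for Cryab.

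Of 12 transcription factors known to act on crystallin genes, 8 passed the filter (Pax6, Maf, Mafg, Sox2, Prox1, Six3, Hsf1 and Hsf2). The median log2 fold change was -0.01 (4 higher, 4 lower), with 0 called by limma, with or without the array as a block, and 0 at an unadjusted p under 0.05. Their median centered log2 level in CTR2 was -0.05. Pax6 was at 2.06, 1.73, 1.59 and 1.84 in CTR1 to CTR4 and at 1.95, 2.03, 1.91 and 1.87 in ONC1 to ONC4. Gata3 was well above background in 0 of 8 channels and Pitx3 in 6.

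Since all 10 crystallins were highest in the same channel, the RefSeq promoters of GRCr8 were searched on both strands, from 250 bases before to 50 after the start. The motifs were TGCTGAC (a core of Maf recognition elements), GAANNTTC (a heat shock element core) and TATAAA (a form of the TATA box). Promoters matched by symbol for 9 of 10 genes, without Cryab. TGCTGAC was found in 3 of 9 (Cryaa, Cryba1 and Cryba4), against 4.41% of 27457 promoters, TATAAA in 3 of 9 (Cryba1, Cryba2 and Crygs), against 14.3%, and GAANNTTC in 0 of 9, against 8.34%. These are matches of letters only. Other forms of the TATA box were not searched, so a promoter without TATAAA may still hold one. The 120 bases before the start are shown for the lens-restricted alpha-crystallin Cryaa (chr20:9784791-9784910, plus strand), for the beta-crystallin with both motifs, Cryba1 (chr10:63112818-63112937, minus strand), and for the gamma-crystallins Crygs (chr11:91711635-91711754, plus strand) and Crygb (chr9:73957265-73957384, minus strand), the last with none of the motifs; capitals mark TGCTGAC and TATAAA.
Cryaa: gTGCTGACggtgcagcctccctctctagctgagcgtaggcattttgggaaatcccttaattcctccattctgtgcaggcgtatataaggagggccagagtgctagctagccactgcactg
Cryba1: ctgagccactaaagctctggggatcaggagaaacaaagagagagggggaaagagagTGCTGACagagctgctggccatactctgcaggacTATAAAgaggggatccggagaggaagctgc
Crygs: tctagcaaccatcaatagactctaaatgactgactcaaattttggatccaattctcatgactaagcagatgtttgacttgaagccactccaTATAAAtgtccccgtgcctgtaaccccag
Crygb: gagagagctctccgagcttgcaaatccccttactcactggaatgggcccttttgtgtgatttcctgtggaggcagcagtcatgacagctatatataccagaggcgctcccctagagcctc

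Variability among the 4 retinas of a label was expressed as REV, the relative expression variability of the methods, a coefficient of variation in percent taken from the chi-square interval of the standard deviation. Its median over the 10 crystallins was 106.8% in CTR and 69.3% in ONC, against 25.1% and 21.7% over all genes. REV was higher in CTR than in ONC for 10 of 10, against 58.5% of all genes. By class, the medians in CTR and ONC were 67.8% and 55.4% for the alpha, 112.2% and 81.9% for the beta and 121.7% and 78.8% for the gamma class. Cryab was the least variable of the 10 in CTR, at 47.5%, with 45.5% in ONC, and 13.3% and 13.9% of genes had a higher REV. In the ONC channels Crybb1 was the least variable, at 38.3%, with 20.4% of genes above it.

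Leaving out CTR2 brought the median REV in CTR to 64.5%, although 3 retinas widen the interval and raise the median over all genes to 33.6%. Without CTR1, CTR3 or CTR4, also with 3 channels, the median of the crystallins was 177.8%, 186.4% and 167.2%. Among these 3-channel values the one without CTR2 was the lowest. Without CTR2, Crybb2 had a REV of 18.6%, with 76.4% of genes above it, and Cryba4 37.2%, with 44.6% above it. Cryba2 was at 95.9%, with 5.47% above it, so for this gene CTR1, CTR3 and CTR4 differed as well. The median REV in ONC, again from 3 channels, was 107.7%, 133.9% and 105.4% without ONC1, ONC2 or ONC3, and 73.2% without ONC4. Without ONC4, REV was 175.0%, 176.5% and 155.3% for Cryba1, Cryba2 and Cryba4, in which ONC2 stood above ONC1 and ONC3, but 48.6% for Crygb and 41.4% for Crygs.

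**Figure D4:**
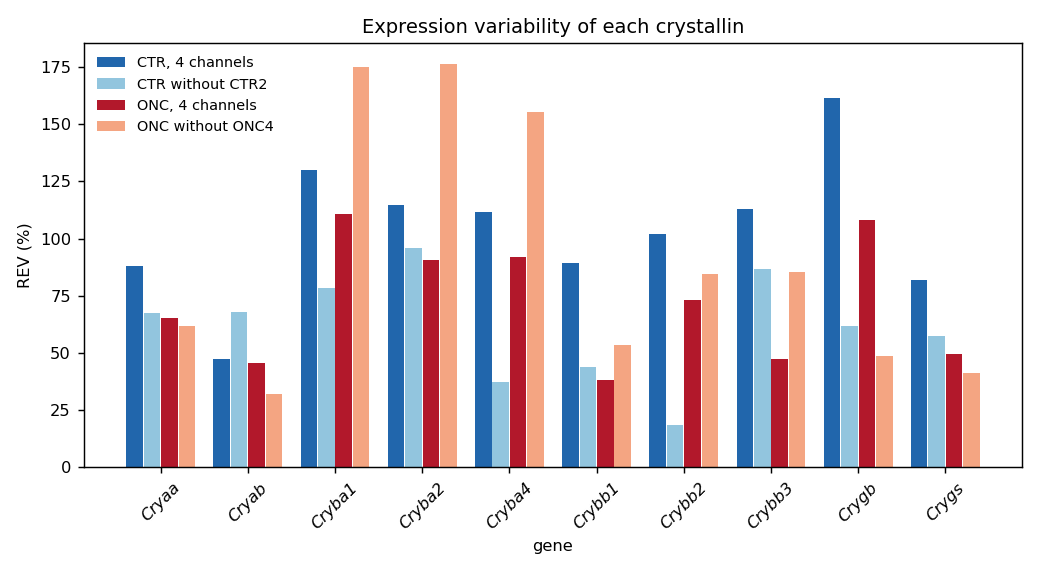
REV in percent (vertical axis, from 0) of each crystallin gene in the CTR and the ONC channels, with all 4 channels and with CTR2 or ONC4 left out (3 channels). Bars of all 4 CTR channels exceed those of the ONC channels for 10 of 10 genes, and without CTR2 the CTR bar is lower for every gene but Cryab. REV from 3 channels carries a larger factor than REV from 4, so bars of 3 and of 4 channels are not on the same scale.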

How the data were processed

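RNA of 4 CTR and 4 ONC retinas was hybridized to 4 two-color Agilent rat arrays. Per the file headers, the deposited intensity values (mean foreground, median local background and a processed signal of each spot) came from Feature Extraction 12.0.3.1, while the submitters' processing notes name 11.1.19.1. Median foreground in CTR1 to CTR4 was 468.2, 626.0, 446.6 and 468.1, and for ONC1 to ONC4 it was 337.3, 494.7, 331.9 and 218.1. Background medians were 55.0 to 56.5 in CTR and 26.0 to 29.5 in ONC. The number of arrays limits precision.

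Controls, spots with an outlier flag and spots below 2 times background in any channel were removed, which left 27371 spots of 16307 genes. After background subtraction, loess within arrays and median centering of channels, log2 values were averaged over spots and then over probes. Groups were compared by limma 3.58.1 (R 4.3.3), two-sided, with Benjamini-Hochberg adjustment over 16307 genes and a threshold of 0.05, tested on simulated data. Other steps used Python 3.11.15, numpy 2.4.6, pandas 2.3.3, scipy 1.17.1 and matplotlib 3.10.9. The labels put equal numbers on a shared array, and the deviations of such channels from their group means correlated over genes (0.149, 0.549, 0.401 and 0.487). The array therefore served as a block in an alternative fit. On array 1 the pairing did not stand out, as CTR1 correlated at 0.171 with ONC2 and at 0.149 with ONC1. Other alternatives changed normalization, background, filter, test, samples and probes.

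The genes named are the 10 crystallins, members of short marker and related lists, and the 10 genes with the closest profiles. Members and lists were chosen with earlier results of these data known. Pmel, Pou4f1, Sox1 and the promoter of Cryab were not analysed here. Values of some listed genes are not reported here.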

Additional observations from a re-analysis of the deposited data

Results flagged for a closer look

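In 44 groups of 4 channels tested for a channel far from the others (the crystallins, the lens markers, the class medians and the alpha-crystallin difference, by label), 2 had such a channel, and chance gives about 1 in 20. Crybb2 was at a log2 level of 5.12 in CTR2 against 4.02 in the next highest CTR channel, a gap of 0.877 of the group's range. The lens marker Lgsn was at 0.47 in CTR2 against -1.21 in the next highest, a gap of 0.939 of the range.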

How the results depend on the processing

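None of the 10 crystallins was called in 21 of 23 alternatives, and 2 (Cryaa and Cryab) were called with median scaling, without and with the array block. Genes called, 81 in all as reported, were 3194 with median scaling, 412 with loess followed by Aquantile, 14 with normexp, 21 with the processed signals, 123 with spots well above background in all channels, 1254 with the array block, and 0 with normexp and no filter on dim spots together, or with CTR2, CTR4, ONC1 and ONC3 alone. By the methods' t-test they were 2682 unadjusted and 0 after Benjamini-Hochberg. In alternatives chosen after seeing the data they were 1 without array 2, 0 without array 2 and with the block, and 5371, 1677 and 0 with the block and median scaling, normexp or processed signals. Leaving out a channel gave 0 to 38. The cause was not tested, except that fewer channels or more genes entered some fits. The block changed no call among the 10 crystallins.

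The median log2 fold change of the crystallins was below 0 in 21 of 21 alternatives, at -1.05 with CTR2, CTR4, ONC1 and ONC3 alone (alpha -1.18, beta -1.15) and from -0.64 to -0.19 with a channel left out. The alpha and beta medians were also below 0 in 21 of 21, and the gamma median in 18. Each array holds 1 channel of each label, so a block by array cannot change a fold change. The settings with the block therefore repeat those without it and add nothing to these counts. Over all alternatives Cryba1 was above 0 only without CTR2, and Crygb ranged from -0.75 to 0.57. Cryaa minus Cryab was below 0 in 15 of 15, from -0.64 to -0.34 with a channel left out, -0.30 with processed signals and -0.32 with median scaling. With the array as a block the difference is the same, and exact sign flips over the 4 arrays gave p = 0.25. The smallest p possible in that test is 0.125, so it could not fall under 0.05. The median REV ran from 64.5% to 186.4% in CTR and from 73.2% to 133.9% in ONC with a channel left out. The dye of the ONC channels had the lower foreground, 218 to 495 against 447 to 626, which with 4 arrays limits precision.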
